A study of Homo sapiens with 6 samples.

Results

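The mRNA of 10 growth factor and sheddase genes was followed in THP-1-derived macrophages after silencing of DUSP6: the ERBB ligands AREG, HBEGF, EREG and TGFA, the platelet-derived growth factor chains PDGFA, PDGFB and PDGFC, HGF, and the sheddases ADAM10 and ADAM17. The 10 were chosen by gene symbol as macrophage products that act on epithelium and stroma, and each symbol matched 1 of the 63241 gene rows. THP-1 cells, a human leukaemia line of the monocytic lineage, can be turned into macrophage-like cells. The siDUSP6 libraries came from cells transfected with an siRNA against DUSP6, a phosphatase that removes phosphate from ERK, and the siNC libraries from cells transfected with a negative control siRNA, with 3 libraries in each group, all labelled 24 h. The siNC cells are labelled WT, both groups are of the same line, and the labels do not say how the monocytes were differentiated or whether libraries came from separate cultures, so p-values reflect spread among these libraries alone, which may be technical.

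EGF-family ligands are made as membrane-anchored precursors. ADAM17 releases the extracellular part of HB-EGF, amphiregulin, epiregulin and TGF-alpha, and ADAM10 that of EGF and betacellulin, and the freed ligands activate ERBB receptor tyrosine kinases on neighbouring cells. PDGF chains pair into dimers that act on fibroblasts and smooth muscle through PDGF receptors, and HGF acts on epithelial cells through the receptor MET. Both receptor classes signal through RAS and ERK, the pathway on which DUSP6 acts, and several of the ligand genes are themselves induced by ERK. The series title places the work in a study of macrophage polarization and epithelial-mesenchymal transition in adenomyosis.

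AREG and EREG, neighbouring genes on the plus strand of chromosome 4 in GRCh38 (EREG at 74365143 to 74388751, AREG at 74445134 to 74455009, 56383 bases further on), both measured higher in siDUSP6, and HBEGF, on the minus strand of chromosome 5 at 140332843 to 140346631, measured lower. Their promoters are shown because, among the 10 genes, these are the ligands whose libraries separated by group, although none of these ligands passed the test over all genes. The 250 bases before each RefSeq start (GRCh38.p14) are given 5' to 3' on the gene's strand, for AREG at chr4:74444886-74445135 and EREG at chr4:74364895-74365144 on the plus strand and for HBEGF at chr5:140346604-140346853 on the minus strand. Capitals mark exact matches, on either strand, to a cyclic AMP response element (TGACGTCA), a TATA box (TATAAA) or an SP1 box (GGGCGG).
AREG: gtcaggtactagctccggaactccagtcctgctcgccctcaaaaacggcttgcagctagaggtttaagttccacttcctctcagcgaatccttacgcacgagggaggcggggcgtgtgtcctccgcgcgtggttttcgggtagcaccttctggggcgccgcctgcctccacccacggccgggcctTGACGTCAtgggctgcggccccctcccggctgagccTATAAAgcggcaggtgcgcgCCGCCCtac
EREG: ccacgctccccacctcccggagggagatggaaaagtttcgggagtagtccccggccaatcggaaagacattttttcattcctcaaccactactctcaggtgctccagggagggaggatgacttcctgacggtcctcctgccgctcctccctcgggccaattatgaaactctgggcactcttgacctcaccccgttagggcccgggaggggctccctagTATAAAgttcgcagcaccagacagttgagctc
HBEGF: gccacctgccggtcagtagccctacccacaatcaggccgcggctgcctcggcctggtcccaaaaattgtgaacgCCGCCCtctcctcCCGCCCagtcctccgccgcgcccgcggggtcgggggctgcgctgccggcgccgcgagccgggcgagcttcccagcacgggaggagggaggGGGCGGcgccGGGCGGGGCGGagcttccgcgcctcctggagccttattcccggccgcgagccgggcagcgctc
A TATA box match began 29 bases before the AREG start and 32 bases before the EREG start, and HBEGF had none; 10.7% of 35116 promoters held this match in the same window. AREG also held a cyclic AMP response element match 65 bases before its start, which 1.65% of promoters held. HBEGF held 5 SP1 box matches and AREG 1, and the 2 HBEGF matches nearest its start share a base. At least 1 such match was held by 42.6% of promoters. The HBEGF window was 76.4% G and C, beside a median of 58% over promoters. Promoter entries matched 8 of the 10 genes by symbol, all but PDGFB and PDGFC, and 6 of the 8 held an SP1 box match. None of the 8 held a match to the AP-1 site (TGANTCA, 6.57% of promoters) or the ETS site (CCGGAAGT, 3.42%). PDGFA alone held the EGR site (GCGNGGGCG, 8.41%), which overlaps the SP1 box, in some but not all of its promoter entries. A gene was counted if any of its entries held a match, while the shares are of single entries. A match describes letters in this window, not a site in use.

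Values were TPM, which divide by transcript length and by the library's total, so levels of different genes can be set side by side, but sequencing depth is unknown. In each library 14487 to 14680 genes had at least 1 TPM. DUSP6 itself measured 227, 218 and 222 TPM in siDUSP6 replicates 1, 2 and 3, against 359, 368 and 378 TPM in siNC (log2 fold change -0.73, limma adjusted p = 8.667e-05). In siDUSP6 replicates 2 and 3 the treatment label reads DUSP7 and DUSP8, against DUSP6 in their title and genotype, so the comparison was also run with siDUSP6 replicate 1 alone. DUSP7 measured 38.8 ± 1.35 TPM in siDUSP6 and 48.9 ± 1.57 TPM in siNC (limma adjusted p = 0.0111), and DUSP8 1.56 ± 0.0569 and 1.78 ± 0.358 TPM (limma adjusted p = 0.7191). In siDUSP6 replicates 1, 2 and 3 DUSP7 measured 39.6, 39.5 and 37.2 TPM, and DUSP8 1.51, 1.54 and 1.62 TPM. Replicate 1 was thus about as low in DUSP7 as replicate 2, and DUSP8 was not lowest in replicate 3. Of 12 macrophage markers 11 reached a mean of 1 TPM, with a summed level of 1736 to 1744 TPM in siDUSP6 and 1752 to 1772 TPM in siNC. No epithelial marker of 7 did (EPCAM was at 0 in every library), and 2 of 7 stromal markers (LUM and COL3A1 at 0) and 3 of 6 lymphocyte markers (CD3D and MS4A1 at 0) did, with summed levels of 5.26 to 6.24 and 3.55 to 5.11 TPM in siDUSP6 and of 4.98 to 7.78 and 4.64 to 5.68 TPM in siNC.

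The 10 genes spanned a wide range of levels. AREG was the highest, above 97.3% of the 14602 genes whose mean reached 1 TPM, followed by HBEGF, above 96.3%. ADAM10 and ADAM17 came next, at 145 ± 8.62 and 146 ± 4.21 TPM in siDUSP6 and 159 ± 7.6 and 152 ± 1.41 TPM in siNC (SD, n = 3 each), and the difference between them was smaller than the SD of ADAM10. PDGFA, PDGFC and EREG followed in that order without overlap, and PDGFB, TGFA and HGF had means under 1 TPM, with PDGFB and TGFA overlapping each other and HGF below both. The order was the same in both groups except for the near-equal sheddases and for PDGFB and TGFA.

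**Figure D1:**
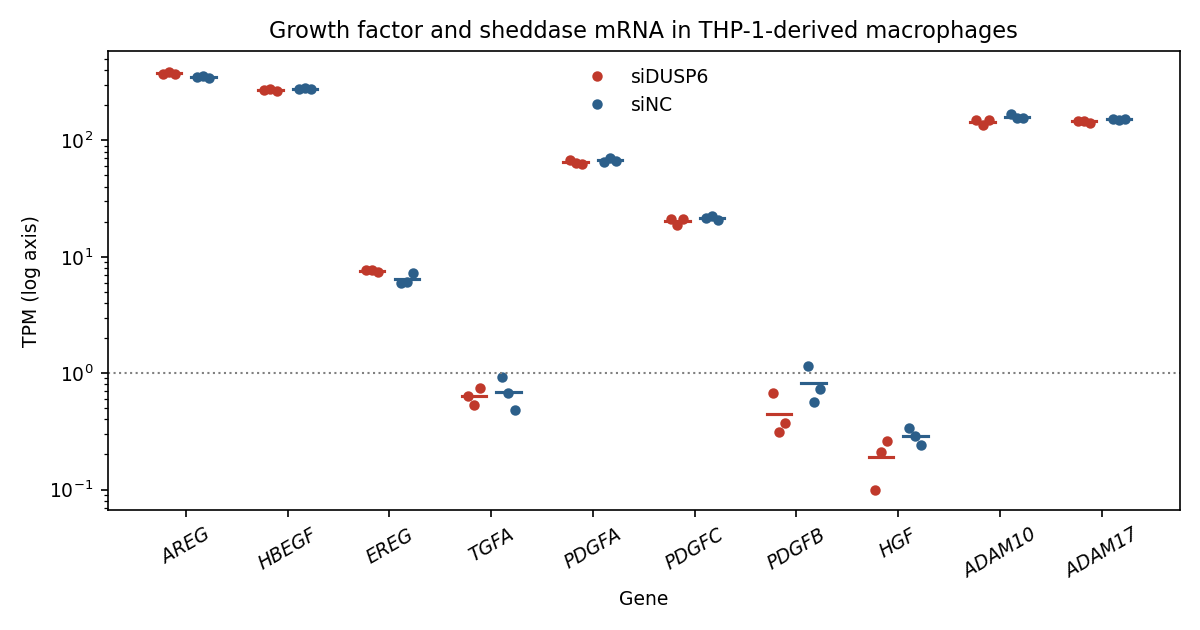
TPM of the 10 genes on a log axis, by library, with siDUSP6 left of siNC for each gene; points are libraries, horizontal bars are means of 3 libraries, and the dotted line marks 1 TPM. AREG and HBEGF stand above 250 TPM in every library, and TGFA, PDGFB and HGF around or below 1 TPM.

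None of the 10 genes passed the comparison of siDUSP6 with siNC. Of these, 7 reached a mean of 1 TPM and were tested with limma on log2(TPM + 1) over all 14602 such genes, and 0 of the 7 had an adjusted p under 0.05, where 3.86% of all tested genes did (2.37% higher and 1.49% lower in siDUSP6). At an unadjusted p under 0.05 there were 3 of 7 (AREG, EREG and ADAM10), where 19.2% of all genes lay. The siDUSP6 and siNC libraries did not overlap for 5 of the 7, higher in siDUSP6 for AREG and EREG and lower for HBEGF, ADAM10 and ADAM17, where 25.1% of all genes did not overlap (10.2% higher and 14.9% lower in siDUSP6). The median log2 fold change of the 7 was -0.06, beside -0.03 for all tested genes. In bulk RNA, fewer cells that make a transcript and less transcript per cell cannot be told apart.

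**Figure D2:**
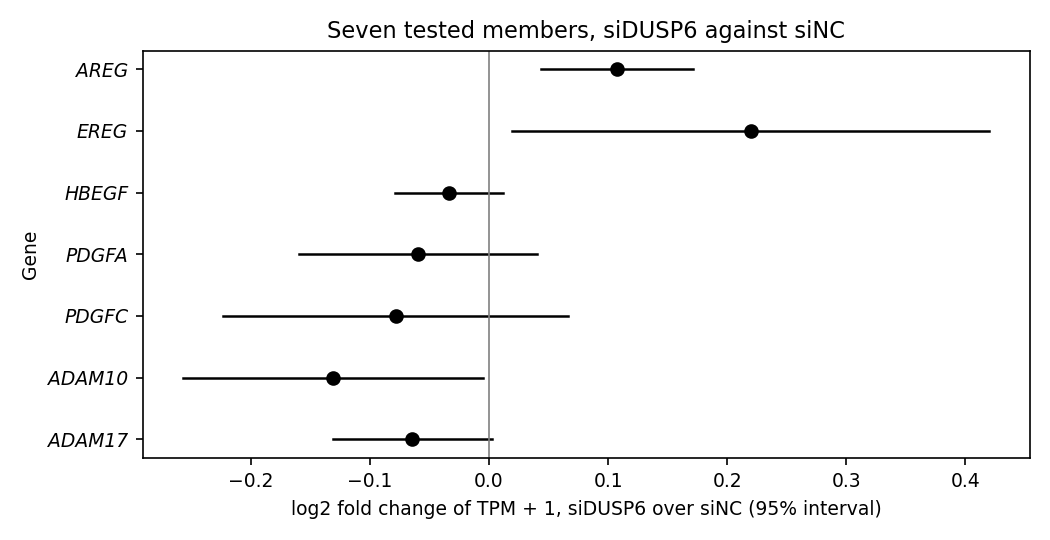
Log2 fold change of TPM + 1 (horizontal axis), siDUSP6 over siNC, for the 7 tested genes, as points with 95% intervals from limma. The intervals of AREG, EREG and ADAM10 lie to 1 side of 0, those of the other 4 include it, and none reaches 0.5 in size.

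AREG encodes amphiregulin, an EGF receptor ligand of epithelial repair. AREG measured 371, 390 and 374 TPM in siDUSP6, against 351, 359 and 344 TPM in siNC. All 3 siDUSP6 libraries lay above all 3 siNC libraries. The mean was 379 ± 10.2 TPM in siDUSP6 and 351 ± 7.3 TPM in siNC, a difference of 7.76%. The log2 fold change was 0.11 (SE 0.0266, 95% interval 0.04 to 0.17, limma adjusted p = 0.08404). Its unadjusted p of 0.005389 was the 936th smallest of 14602. After median-of-ratios scaling AREG passed (log2 fold change 0.13, limma adjusted p = 0.04052), and in the other 16 alternatives it did not, with an adjusted p of up to 0.4185.

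EREG encodes epiregulin, a broad ERBB ligand known in monocytes and macrophages. EREG measured 7.73, 7.67 and 7.42 TPM in siDUSP6, against 5.98, 6.06 and 7.19 TPM in siNC. The siNC replicate 3 library came within 0.3 TPM of the siDUSP6 libraries, while the other siNC libraries lay further down. The coefficient of variation was 2.16% in siDUSP6 and 10.6% in siNC, beside medians of 9.62% and 8.93% over genes of 5 to 10 TPM. The log2 fold change was 0.22 (SE 0.0841, 95% interval 0.02 to 0.42, limma adjusted p = 0.2226), the largest in size among the 7. A change of more than 1.34-fold lay outside that interval on the log2(TPM + 1) scale.

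HBEGF encodes heparin-binding EGF-like growth factor, which acts on epithelial cells, smooth muscle and fibroblasts. HBEGF measured 270, 276 and 269 TPM in siDUSP6, against 277, 280 and 278 TPM in siNC. The groups did not overlap, but the nearest libraries, siDUSP6 replicate 2 and siNC replicate 1, were about 1 TPM apart. The mean was 272 ± 3.58 TPM in siDUSP6 and 278 ± 1.5 TPM in siNC, a difference of -2.31%. On the log2 scale the change of HBEGF was -0.03 (SE 0.0191, 95% interval -0.08 to 0.01, limma adjusted p = 0.4016). The median over all tested genes was also -0.03. After median-of-ratios scaling the HBEGF change was -0.01 (limma adjusted p = 0.8137). TGFA, which encodes the EGF receptor ligand TGF-alpha, measured 0.64, 0.53 and 0.75 TPM in siDUSP6, against 0.92, 0.68 and 0.48 TPM in siNC, with overlapping groups, and was too low to test.

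Together the 4 ligands summed to 650, 674 and 651 TPM in siDUSP6, against 635, 645 and 630 TPM in siNC, a difference of 3.46% in the mean. AREG made up 57.5 ± 0.39% of that sum in siDUSP6 and 55.2 ± 0.486% in siNC, and HBEGF 41.2 ± 0.355% and 43.7 ± 0.395%. EREG held 1.16 ± 0.029% in siDUSP6 and 1.01 ± 0.116% in siNC. The ratio of AREG to HBEGF within a library, which no scaling of the library alters, was 1.37, 1.42 and 1.39 in siDUSP6, against 1.27, 1.28 and 1.24 in siNC. The ratios did not overlap (log2 difference 0.14, two-sided exact permutation p = 0.1, the smallest that 3 against 3 libraries allow). Over the 4 such ratios computed between members, chosen after their values were seen, the Benjamini-Hochberg adjusted exact permutation p was 0.4, and the other 3 ratios overlapped between the groups.

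**Figure D3:**
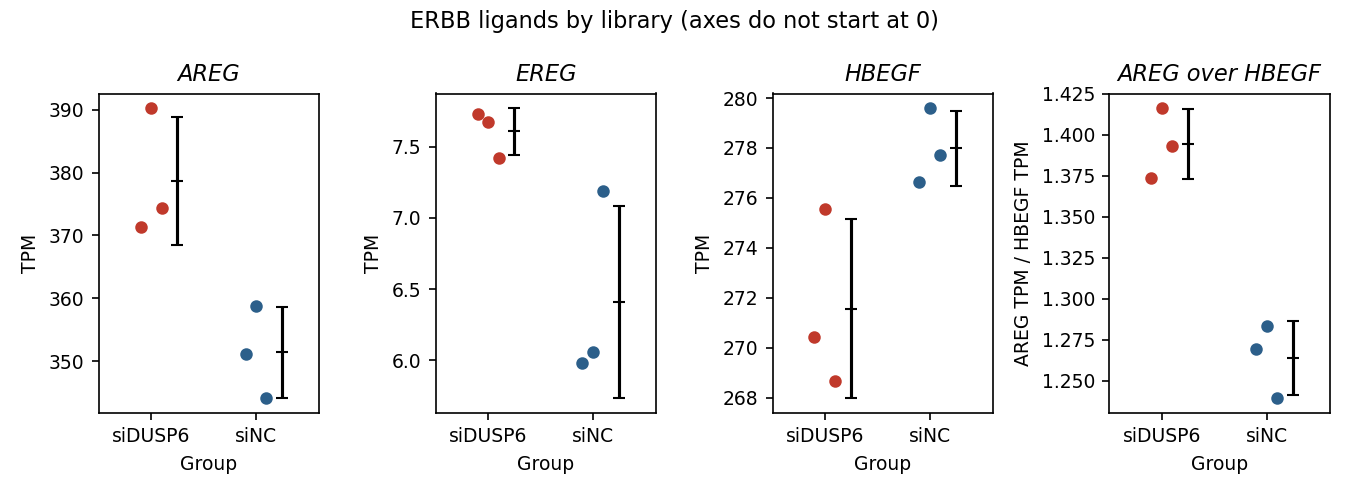
TPM of AREG, EREG and HBEGF and the within-library ratio of AREG to HBEGF, by library, siDUSP6 left of siNC; points are libraries, and black marks give the mean ± SD of 3 libraries. The vertical axes do not start at 0, so the AREG difference of 7.76% fills much of its panel.

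NRG1, the other ERBB ligand made at a high level in these cells, did pass the test. Its product neuregulin-1 binds ERBB3 and ERBB4. NRG1 measured 96.0, 96.7 and 96.9 TPM in siDUSP6, against 82.6, 85.7 and 85.0 TPM in siNC. The siDUSP6 libraries agree within 1 TPM, and all lay above the siNC libraries. NRG1 rose by 14.3% in mean TPM (limma adjusted p = 0.01452, log2 fold change 0.19 ± 0.0266 SE), a call that was lost in 5 of 6 fits that left out a library (kept without siNC replicate 2) and in 3 other alternatives, with an adjusted p of up to 0.2522. Of 7 further ERBB ligands only NRG1 and EPGN reached 1 TPM, and EPGN did not pass (limma adjusted p = 0.5675).

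The receptors for these ligands were low. EGFR, named with ERBB4 after its values were seen, measured 0.617 ± 0.107 TPM in siDUSP6 and 0.57 ± 0.115 TPM in siNC, and ERBB4 measured 4.36 ± 0.674 and 4.03 ± 0.31 TPM (limma adjusted p = 0.7405). Of all tested genes 2.37% rose and 1.49% fell. Among 8 tested ERBB receptors and feedback inhibitors 1 rose and 1 fell, with a median log2 fold change of 0.06. CBL and CBLB, ubiquitin ligases that mark active receptor tyrosine kinases for breakdown, were these, in opposite directions. CBL fell to 52.4, 54.3 and 51.4 TPM in siDUSP6, against 61.9, 62.8 and 62.5 TPM in siNC (log2 fold change -0.24, limma adjusted p = 0.01362). CBLB rose to 56.6, 53.0 and 56.3 TPM in siDUSP6, against 45.8, 44.5 and 48.2 TPM in siNC (log2 fold change 0.26, limma adjusted p = 0.02972). Neither gene's groups overlapped, and CBLB lay below CBL in every siNC library and overlapped it in siDUSP6. Both calls were lost in 5 of 6 fits that left out a library (CBL kept without siDUSP6 replicate 2, CBLB without siNC replicate 3), with adjusted p of up to 0.1843 for CBL and 0.2403 for CBLB over the alternatives.

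ADAM17 is the main sheddase of HB-EGF, amphiregulin and epiregulin. ADAM17 measured 148, 148 and 141 TPM in siDUSP6, against 154, 151 and 152 TPM in siNC. All siDUSP6 libraries lay below all siNC libraries, by less than 3 TPM at the nearest. Its log2 fold change was -0.06 (SE 0.028, 95% interval -0.13 to 0.00224, limma adjusted p = 0.2771). ADAM17 lies on the minus strand of chromosome 2 at 9488486 to 9556732 and shares 1323 exonic bases with IAH1 on the other strand, which measured 37.0 TPM in siDUSP6 and 39.1 TPM in siNC. The kit marked strand, but whether counting used it is not given in the sources used here, so reads in those bases are uncertain.

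ADAM10 cleaves EGF, betacellulin and many other surface proteins. ADAM10 measured 150.2, 135 and 149.9 TPM in siDUSP6, against 168, 155 and 154 TPM in siNC. The groups did not overlap, with siDUSP6 replicate 2 lowest and siNC replicate 1 highest. Its log2 fold change was -0.13 (SE 0.0529, 95% interval -0.26 to -0.0048, limma adjusted p = 0.2436). The coefficient of variation of ADAM10 was 5.94% in siDUSP6 and 4.78% in siNC, beside medians of 2.26% and 2.22% over genes of 100 to 500 TPM, so its groups spread more than most genes of its level.

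Among 9 tested partners of the sheddases 1 rose and 0 fell, with a median log2 fold change of 0.17. TIMP3, the tissue inhibitor that blocks ADAM17, rose to 236, 241 and 233 TPM in siDUSP6, against 208, 203 and 198 TPM in siNC, or 16.5% higher in the mean (limma adjusted p = 0.007604, log2 fold change 0.22 ± 0.0261 SE). Its call was kept when any library was left out, and was lost without the variance trend, with the replicate block and with siDUSP6 replicate 1 alone (adjusted p = 0.08056, 0.05118 and 0.2033). Among 5 other tested ADAM genes only ADAMDEC1, a secreted protease of macrophages, rose, to 202 ± 3.35 TPM in siDUSP6, against 180.3 ± 4.69 TPM in siNC (log2 fold change 0.16, limma adjusted p = 0.02707). Of 10 tested other proteins known to be shed by ADAM17 or ADAM10, 3 rose and 1 fell, and the median log2 fold change was 0.01. Among all tested genes 2.37% rose and 1.49% fell. TNF, the cytokine for which ADAM17 was named, rose to 50.6, 49.4 and 51.5 TPM in siDUSP6, against 36.2, 34.5 and 35.6 TPM in siNC (log2 fold change 0.5, limma adjusted p = 0.001257). IL6R, the interleukin-6 receptor, rose by 15.5% (limma adjusted p = 0.03912) and CD44, the hyaluronan receptor, by 9.58% (limma adjusted p = 0.04718), while MERTK, which binds apoptotic cells for engulfment, fell by 13.9% (limma adjusted p = 0.03279). The TNF call held in all 6 fits that left out a library and was lost with siDUSP6 replicate 1 alone (log2 fold change 0.5). The calls of ADAMDEC1, IL6R, CD44 and MERTK were lost in each of those 6 fits, with limma adjusted p of up to 0.1313.

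PDGFA, whose chains form PDGF-AA, measured 67.4, 63.8 and 63.0 TPM in siDUSP6, against 65.7, 70.5 and 66.3 TPM in siNC. The groups overlapped, with siDUSP6 replicate 1 among the siNC libraries. Its log2 fold change was -0.06 (SE 0.0419, 95% interval -0.16 to 0.04, limma adjusted p = 0.5055), and with siDUSP6 replicate 1 alone it was -0.0021. PDGFC, whose product needs a protease to remove a CUB domain before it acts, measured 21.0, 18.9 and 21.2 TPM in siDUSP6, against 21.5, 22.5 and 20.6 TPM in siNC. These groups overlapped as well, with a log2 fold change of -0.08 (SE 0.0608, 95% interval -0.22 to 0.07, limma adjusted p = 0.5464). PDGFB, whose chains form PDGF-BB, measured 0.67, 0.31 and 0.37 TPM in siDUSP6, against 1.16, 0.56 and 0.73 TPM in siNC, which overlapped and were too low to test.

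PDGFA made up 75.7 ± 1.15% of the summed PDGFA, PDGFB and PDGFC level in siDUSP6 and 75.1 ± 0.674% in siNC, and PDGFC 23.8 ± 1.13% and 24.0 ± 0.406%, differences smaller than their SDs in siDUSP6. PDGFB held 0.752%, 0.374% and 0.438% in siDUSP6, against 1.31%, 0.599% and 0.833% in siNC, which overlapped. The sum was 89.0, 83.0 and 84.6 TPM in siDUSP6, against 88.4, 93.5 and 87.6 TPM in siNC. These sums overlapped between the groups. None of 9 tested PDGF and VEGF relatives and receptors passed, where 3.86% of all tested genes did. The median log2 fold change of the 9 was 0.01. The 2 with the smallest p were NRP2, a neuropilin co-receptor, at 16.4 ± 1.13 TPM in siDUSP6 and 12.7 ± 1.1 TPM in siNC (log2 fold change 0.35, limma adjusted p = 0.07143), and VEGFA, the endothelial growth factor, at 158 ± 2.95 TPM in siDUSP6 and 168 ± 1.42 TPM in siNC (log2 fold change -0.09, limma adjusted p = 0.09091). NRP2 did not pass in 16 of the 17 alternatives, and its smallest limma adjusted p was 0.04967. None of 4 proprotein convertases, which cleave growth factor precursors, passed, beside 3.86% of all tested genes, with a median log2 fold change of -0.03. Those with the smallest p were PCSK5 (limma adjusted p = 0.4467) and FURIN, at 78.9 ± 1.67 TPM in siDUSP6 and 80.8 ± 2.04 TPM in siNC (limma adjusted p = 0.6291).

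HGF, hepatocyte growth factor, was the lowest of the 10 genes. HGF measured 0.1, 0.21 and 0.26 TPM in siDUSP6, against 0.34, 0.29 and 0.24 TPM in siNC. The groups overlapped, and the values are deposited to 2 decimals only. With no filter on low values the limma adjusted p was 0.6835 for HGF, 0.5817 for PDGFB and 0.9299 for TGFA.

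MET, which encodes the HGF receptor, had the largest percent change in mean TPM among the 9 related genes that rose. MET measured 23.1, 23.5 and 22.5 TPM in siDUSP6, against 14.9, 15.2 and 15.4 TPM in siNC. Every siDUSP6 library lay at least 7 TPM above every siNC library, while the libraries within a group differed by at most 1 TPM. The mean was 51.9% higher (log2 fold change 0.57, SE 0.0436, limma adjusted p = 0.001448). The MET call was kept in 16 of 17 alternatives, each left-out library among them, and lost with siDUSP6 replicate 1 alone (log2 fold change 0.58, adjusted p = 0.1106). MET was the only called gene among 5 tested genes of the HGF system, whose median log2 fold change was -0.01. Of all tested genes 2.37% rose and 1.49% fell.

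**Figure D4:**
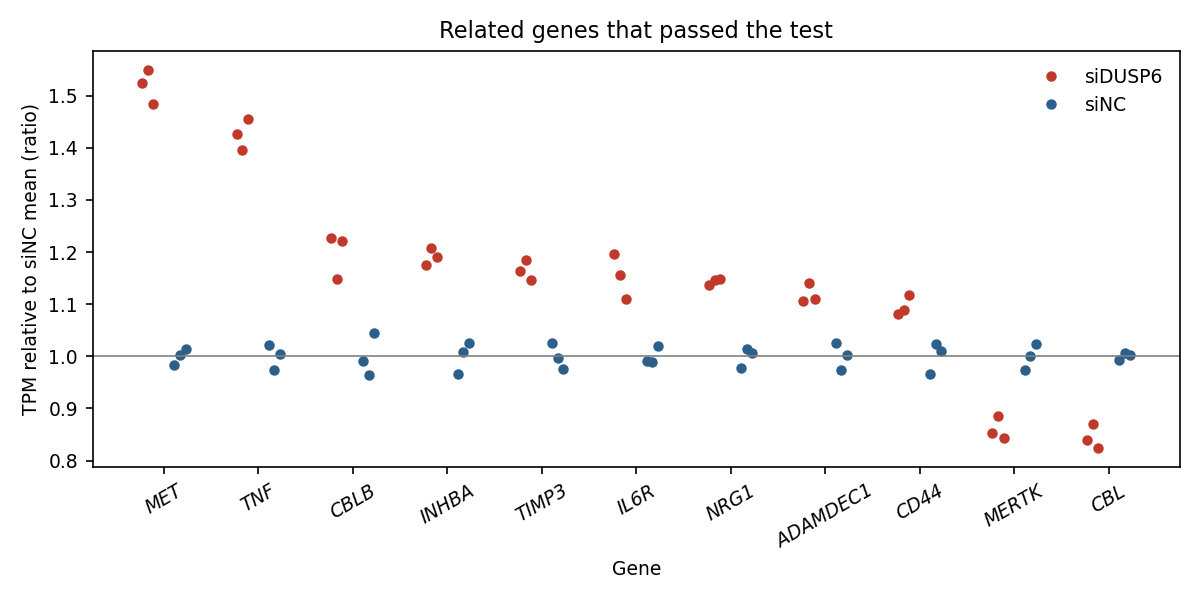
TPM of the 11 related genes that passed the test, each library divided by the siNC mean of its gene (vertical axis, ratio), with siDUSP6 left of siNC. MET and TNF stand furthest above 1 in siDUSP6, and MERTK and CBL lie below 1.

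Of 10 tested other growth factors for epithelium and stroma 1 rose and 0 fell, with a median log2 fold change of 0.08. INHBA, the activin A subunit, rose to 36.8, 37.8 and 37.3 TPM in siDUSP6, against 30.3, 31.6 and 32.1 TPM in siNC (log2 fold change 0.25, limma adjusted p = 0.02205). Its call was lost in each fit that left out a library, with an adjusted p of up to 0.2882 over the alternatives. Over all 9 lists of related genes 62 of 91 were tested, of which 9 rose and 2 fell, where 2.37% and 1.49% of all tested genes did. Their median log2 fold change was 0.03, beside -0.03 for all tested genes. The lists were chosen with earlier results of these data known, so counts above the shares of all genes are no independent result.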

How the data were processed

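RNA was sequenced from 6 libraries of THP-1-derived macrophages, 3 siDUSP6 and 3 siNC, using a kit for stranded mRNA libraries (labels' protocols). The deposited table gives TPM by gene to 2 decimals, each column summing to 1000000 within rounding. Tools in the submitters' processing notes are HISAT2, StringTie and fastp, with the build GRCh38 and no versions; which program computed TPM, and on which annotation, is not given in the sources used here. TPM keep no depth, so no counting interval is given. After 21 rows with no gene ID were left out, 63241 remained. Groups came from sample titles.

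Genes whose mean reached 1 TPM were fitted on log2(TPM + 1) by group alone, in limma 3.58.1 under R 4.3.3, with moderated variances that follow a trend, two-sided tests and Benjamini-Hochberg adjustment over all 14602 genes at 0.05. Fold changes on this scale understate changes of low genes. The fit was also run on simulated data with normal noise set by its own variance estimates. That run checks the code and not how these libraries vary. Exact permutation tests used scipy 1.17.1. Coordinates came from GENCODE 29 and promoters from RefSeq (GRCh38.p14). Named were all 10 members and DUSP6, DUSP7 and DUSP8, and in each of 9 lists of related genes up to 4 called genes by size of change, or, with none called, the 2 of smallest p. Members and lists were chosen with earlier results of these data known. The 17 alternatives cover pseudocounts of 0.1 and 5, filters, scalings, variance models, the replicate block, each library left out, and siDUSP6 replicate 1 alone, added after the data were seen.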

Additional observations from a re-analysis of the deposited data

How the results depend on the processing

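Of 7 tested members, AREG alone passed under any of 17 alternatives, after median-of-ratios scaling, which gave 1 called member against 0. No log2 fold change of the 18 genes followed reversed. The count of called related genes (11) was 6 with no filter, 2 without the variance trend, 2 with the replicate block, 0 with siDUSP6 replicate 1 alone and 3 to 4 when a library was left out. Over all genes, 346 higher and 218 lower became 106 and 18 without the variance trend, 101 and 20 with the replicate block, 44 and 5 with siDUSP6 replicate 1 alone, and 165 to 192 and 57 to 79 with a library left out; with no filter 114 were lower. Same-numbered libraries are only known to share a number. Their deviations from the group means correlated at 0.0252, -0.0365 and 0.048, and those of unlike-numbered libraries at -0.0653 to 0.0416. With 3 libraries in each group these values cannot tell whether same-numbered libraries were prepared together. The percent change of the summed ERBB ligands (3.46%) was 2.23% to 4.16% with a library left out, and that of the PDGF chains (-4.8%) was -6.76% to -2.81%. TPM hold no depth, so precision at low levels (TGFA, PDGFB, HGF) could not be set. With 3 against 3 libraries no two-sided exact permutation test goes below 0.1.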
